A study of Mus musculus with 2 samples.

Results

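Regions of open chromatin at the 3′ ends of protein-coding genes were described in mouse hippocampus. They are accessible sites that lie near an annotated end of a protein-coding transcript and away from the annotated starts of such transcripts. A site was an autosomal peak found in both replicates that lay within 500 bp of an end of a protein-coding transcript and over 2500 bp from every protein-coding transcript start in GENCODE M21. Of 49472 autosomal shared peaks, 723 met the rule (1.46%, 95% Wilson interval 1.36% to 1.57%). They made up 2.62% of the 27632 shared peaks that were distal, meaning over 2500 bp from every start, and they lay near ends of 671 genes.

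Chromatin accessibility had been measured by DNase-seq: nuclei are treated with DNase I, a nuclease that cleaves exposed DNA, and the cleavage sites are read by sequencing. The single group held 2 samples, labelled as biological replicates 1 and 2, of hippocampus from male B6CASTF1/J mice aged 2 months, a cross of C57BL/6J and CAST/EiJ. The labels call the tissue a layer of hippocampus without saying which layer, and give both samples the same donor entry, so that separate animals are not stated. Reads of both parental alleles were placed on 1 reference genome, mm10 (GRCm38), and no treatment or control group was part of the design.

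A protein-coding gene ends at a polyadenylation site, where the transcript is cut a short way past a poly(A) signal and RNA polymerase II then runs on and is released. Gene ends are usually AT-rich, and active ends are known for a zone of low nucleosome occupancy at the poly(A) site. Accessible DNA near an end may also hold elements unrelated to termination, among them enhancers, binding sites of the insulator protein CTCF, small RNA genes and promoters of other transcripts. CTCF binds a long, well-defined motif, stops the loop-forming cohesin complex, and protects its site from DNase I, which leaves a footprint.

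The highest of the sites with a match to the core of the CTCF motif are shown first, because these letters were the most frequent long motif among the sites. The match sought was CCA, any 2 bases, AG, any 2 bases and GGC, on either strand, in the 200 bp centred on the site. Each sequence below holds 30 bases of RefSeq's GRCm38 sequence, read 5′ to 3′ along the strand of the motif, with the 12 matched bases in capitals. The gene named is the one whose transcript end lay nearest.
Txnrd2, chr16:18443652-18443681, plus strand: ccagagtggCCACGAGAGGGCggcagaggc
Dand5, chr8:84815722-84815751, minus strand: cgcttttagCCACTAGGTGGCaccgcgtcc
Trp53i11, chr2:93199039-93199068, minus strand: tagcaatggCCACAAGGTGGCagcacagac
Slc43a2, chr11:75573545-75573574, minus strand: gtgagtctgCCAGCAGGGGGCactgtgatc
Adgrb1, chr15:74589899-74589928, plus strand: ccagagcttCCAGCAGGGGGCagcctaagc
Elovl3, chr19:46135438-46135467, plus strand: tcccagagaCCACCAGGTGGCgtcgcagca
In all 6 sites, each of the 12 matched bases lay in a footprint of both replicates, that is, in a short stretch that the deposited footprint lists report as protected from cutting.

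Of the 5 highest sites that were centred past the nearest end and outside every annotated exon, 4 are shown whole, on the strand of the gene, because no part of them is annotated as mature transcript. Capitals mark bases that lay in a footprint of both replicates.
Txnrd2, chr16:18443581-18443760, plus strand: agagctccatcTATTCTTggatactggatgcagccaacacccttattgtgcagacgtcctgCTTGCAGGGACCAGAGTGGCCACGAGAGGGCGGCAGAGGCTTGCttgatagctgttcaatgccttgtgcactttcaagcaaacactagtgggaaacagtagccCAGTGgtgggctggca
Fam120a, chr13:48878661-48878900, minus strand: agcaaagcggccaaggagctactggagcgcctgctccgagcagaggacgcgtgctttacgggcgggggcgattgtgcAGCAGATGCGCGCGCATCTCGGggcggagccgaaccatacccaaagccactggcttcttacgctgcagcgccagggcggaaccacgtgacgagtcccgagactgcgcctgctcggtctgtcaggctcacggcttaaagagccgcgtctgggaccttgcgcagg
Adgrb1, chr15:74589821-74590000, plus strand: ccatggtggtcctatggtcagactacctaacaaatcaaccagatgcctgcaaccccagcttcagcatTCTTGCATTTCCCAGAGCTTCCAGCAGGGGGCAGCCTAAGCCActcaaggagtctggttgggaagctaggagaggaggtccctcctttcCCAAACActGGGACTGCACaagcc
Shf, chr2:122348561-122348840, minus strand: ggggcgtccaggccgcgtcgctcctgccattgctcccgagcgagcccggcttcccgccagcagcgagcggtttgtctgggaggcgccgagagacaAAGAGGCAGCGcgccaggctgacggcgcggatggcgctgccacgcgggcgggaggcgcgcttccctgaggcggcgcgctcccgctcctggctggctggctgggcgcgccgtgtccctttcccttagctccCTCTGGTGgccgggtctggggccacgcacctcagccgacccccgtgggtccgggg
The Txnrd2 site lay past an internal end of an incomplete transcript model and so within an intron of the longer gene, and the other 3 shown lay outside protein-coding transcripts.

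The deposited lists held 132685 peaks for replicate 1 and 59880 for replicate 2, and 255536 and 111355 footprints. Read depth is not given, and both the heights and the numbers of peaks depend on it. A peak height is the deposited signal at the peak, in units that the sources used here do not define. The heights tested, those below 500 steps (117408 peaks of replicate 1 and 59629 of replicate 2), were whole multiples of a step of 0.00535 in replicate 1 and of 0.0108 in replicate 2, within 0.01 of a step. Sets of sites are therefore compared within a replicate. Where the heights of 1 site in both replicates are set side by side, their ratio depends on the unknown scale of each replicate and shows only how a site stands relative to other sites. The tissue label was checked at promoters: 15 of 18 excitatory neuron genes and 18 of 20 autosomal pan-neuronal genes had a shared peak within 500 bp of a start, against 3 of 16 microglia genes and 0 of 20 liver and muscle genes. Counts were 13 of 17 for hippocampal subfield genes and 11 of 20 for GABAergic interneuron genes. They were 9 of 18 for oligodendrocyte and precursor, 7 of 15 for astrocyte and 4 of 16 for vascular genes. Among all autosomal protein-coding genes with an end over 2500 bp from every start, the share was 63%. In a tissue of many cell types, a site open in few cells and a site weakly open in all cells cannot be told apart by height.

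The sites at gene ends were of middling height. Their median height was 1.76 in replicate 1 (quartiles 0.944 and 3.07) and 1.09 in replicate 2 (quartiles 0.785 and 1.53). The 26909 other distal sites had medians of 1.27 in replicate 1 and 0.871 in replicate 2. The ratio of medians, sites at gene ends over other distal sites, was 1.38 in replicate 1 and 1.25 in replicate 2, with a mean of 1.31 ± 0.0958 (SD, n = 2). Promoter-proximal sites, those within 2500 bp of a start, were higher, with medians of 2.05 in replicate 1 and 1.62 in replicate 2. With 2 samples of 1 group no test between conditions was possible, and sites of 1 genome in 2 samples are not independent replicates, so that these and all later values are descriptions.

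The excess over other distal sites was shared by distal sites in general that lay near genes. Distal sites over 500 and up to 1000 bp from the nearest end had medians of 1.76 in replicate 1 and 1.07 in replicate 2, nearly those of the sites at ends. The medians were 1.79 and 1.04 between 2500 and 5000 bp and still 1.63 and 0.99 between 5000 and 20000 bp, but 1.11 and 0.807 for the 17540 sites over 20000 bp away. Set against only the 9369 other distal sites within 20000 bp of an end, the height ratio was 1.06 ± 0.0165 (SD, n = 2). This comparison set was chosen after the values had been seen. In height, therefore, the sites at gene ends stood apart from distant distal sites and hardly from their neighbours.

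**Figure D1:**
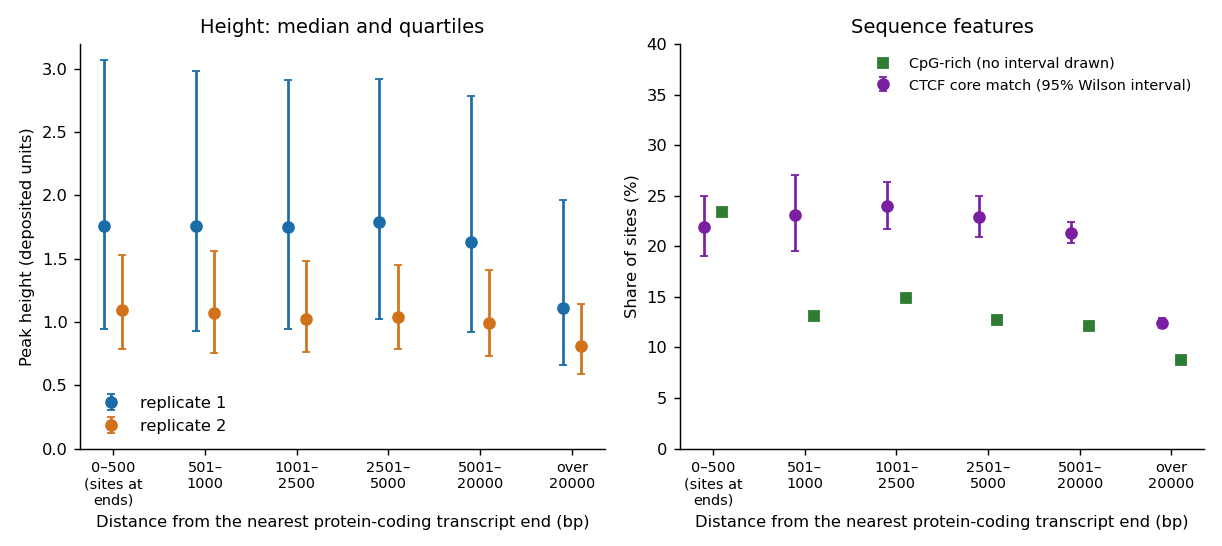
Left, median peak height in deposited units (points) with quartiles (bars) in each replicate, and right, the share of sites in percent with a CTCF core match or with CpG-rich sequence, by distance in bp from the nearest protein-coding transcript end among distal sites. Heights and CTCF shares were close to level up to 20000 bp and lower beyond, whereas the CpG-rich share was 23.4% within 500 bp and between 8.77% and 14.9% in every other class.

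The replicates ranked the sites alike. Across the 723 sites, log10 heights in replicates 1 and 2 had a Pearson r of 0.79 and a Spearman rho of 0.78, against 0.77 and 0.74 across the other distal sites; these correlations are across sites of the same 2 libraries and are given without a p. The height was numerically greater in replicate 1 at 565 of 723 sites (78.1%), against 71.5% of all autosomal shared peaks. Heights spanned 0.15 to 20.3 in replicate 1 and 0.172 to 29.6 in replicate 2.

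**Figure D2:**
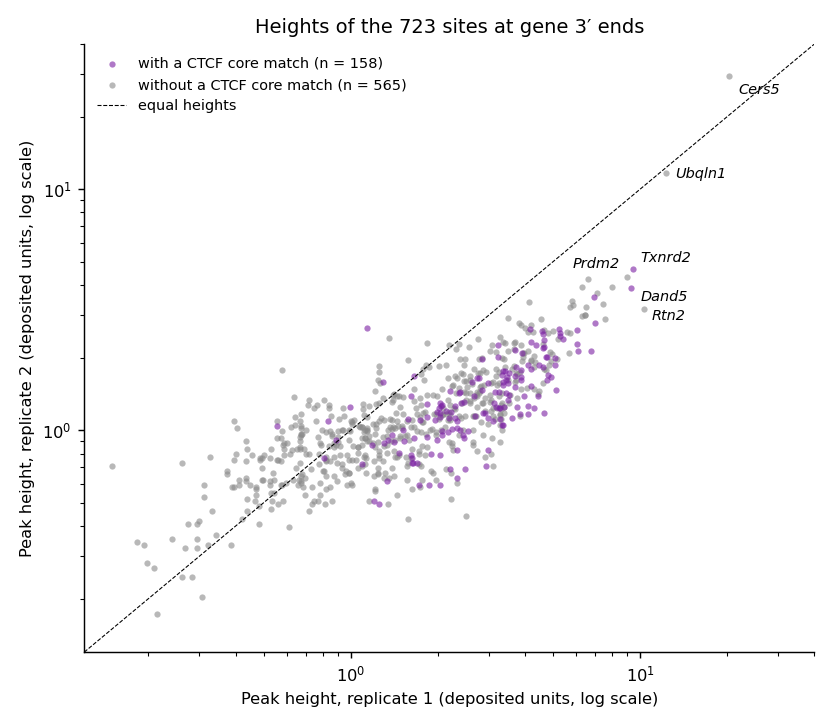
Peak height in replicate 2 against replicate 1, both in deposited units on log scales, for the 723 sites at gene ends (1 point each), with the 6 highest named. The Cers5 and Ubqln1 sites lie apart at the top, close to the line of equal heights, and sites with a CTCF core match lie mostly below that line.

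The 2 highest sites lay inside final exons. The site at chr15:99735661-99736060, in a 3′ UTR of Cers5, which encodes a ceramide synthase, had heights of 20.3 in replicate 1 and 29.6 in replicate 2. The site at chr13:58177621-58177800, in a 3′ UTR of Ubqln1, which encodes a shuttle protein that brings ubiquitinated proteins to the proteasome, had heights of 12.3 and 11.7. Both lay near internal ends and not the outermost end of the gene, at 48.8% and 39.4% GC, and neither held a CTCF core match. In neither did any base lie in a footprint of both replicates: the Cers5 site held 3 footprints of replicate 1 and 2 of replicate 2, and the Ubqln1 site 2 of each, at different bases.

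The next 3 sites lay in an intron or a 3′ UTR. The Txnrd2 site, in an intron of the gene of mitochondrial thioredoxin reductase, had 9.47 and 4.65. The Prdm2 site, in an intron of a gene for a zinc-finger histone methyltransferase, had 9.02 and 4.32. The Dand5 site, in the 3′ UTR of a secreted antagonist of Nodal signalling, had 9.31 and 3.87. All 3 were in both of the shorter, stricter peak lists, as were the other 9 of the 12 highest sites.

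Rtn2, which encodes a reticulon that shapes the endoplasmic reticulum, had a site in its 3′ UTR with heights of 10.3 in replicate 1 and 3.17 in replicate 2. Inpp5b, an inositol polyphosphate 5-phosphatase, had 7.97 and 3.92 at a site that lay 147 bp from a start of another annotated transcript. Chia1, an acidic chitinase, had 6.58 and 4.22 in its last coding exon. Among these 12 sites the Inpp5b and Trp53i11 sites lay within 500 bp of a GENCODE start of a transcript that is not protein-coding, and the Prdm2 and Inpp5b sites within 500 bp of a RefSeq start, so a promoter of a further transcript cannot be told apart from a feature of the end there. Fam120a, which encodes an RNA-binding protein, had 7.46 and 3.33 at its site 319 bp past the outermost end. Trim14, of the tripartite motif family of antiviral proteins, had 6.31 and 3.93, and Trp53i11, a p53-induced gene, had 6.93 and 3.57.

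For 2 of the highest sites in final exons that had no CTCF core, 30 bases around the longest stretch in footprints of both replicates, with footprint bases in capitals, show what was protected there.
Rtn2, chr7:19296024-19296053, plus strand: CgTGACCCACCGCTGGAGGCGCCGTGAGGg
Chia1, chr3:106131816-106131845, plus strand: tccaggaaGTGGGAGTGGGGGTGgaagctc
In the whole Rtn2 site 49 bases, and in the Chia1 site 41 bases, lay in footprints of both replicates, against 0 bases in the Cers5 and Ubqln1 sites.

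Footprints were somewhat more frequent in these sites than in other distal sites. At least 1 footprint of each replicate overlapped 503 of 723 sites (69.6%, 95% Wilson interval 66.1% to 72.8%), against 61.9% of other distal sites and 63.8% of all autosomal shared peaks. The same share was 68.3% to 69.5% in every distance class between 500 and 20000 bp and 58.2% beyond. Sites at gene ends were also wider, with a median of 160 bp against 149 bp, and a wider site has more room for footprints; the part of width was not tested. In the shorter lists of both replicates stood 331 sites (45.8%), against 42.1% of other distal sites and 54.5% of all autosomal shared peaks, the last raised by promoters at 70.1%.

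Most footprints were found at Cacna1a, which encodes the pore of P/Q-type calcium channels. Its site at chr8:84639401-84639720 held 8 footprints in replicate 1 and 8 in replicate 2, with heights of 5.82 and 3.42 and 80.6% GC. It lay in a coding exon near an internal end, 410 bp from a start of another annotated transcript. Nhsl1, a regulator of actin, had 4 and 11 footprints, and the gene 2700081O15Rik had 6 and 6. Trim14 had 5 in each replicate, and Nrg2, which encodes the growth factor neuregulin 2, had 4 and 6 in a coding exon of 80.7% GC.

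CTCF core matches lay in 158 of 723 sites (21.9%, 95% Wilson interval 19% to 25%), against 15.8% of other distal sites (15.3% to 16.2%), 4.28% of promoter-proximal sites and 10.8% of all autosomal shared peaks, each searched over 200 bp. Here too the excess was that of distal sites near genes: among other distal sites within 20000 bp of an end the share was 22%, and beyond 20000 bp 12.4%. Within each replicate alone the order was the same, with 13.9%, 14.9% and 10.5% in replicate 1 and 17.6%, 17.8% and 12.3% in replicate 2 for sites at ends, other distal sites within 20000 bp and all other distal sites.

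Sites with the core were the higher and better footprinted ones. Their median heights were 2.93 in replicate 1 and 1.26 in replicate 2, against 1.42 and 1.02 for the 565 sites without it. A footprint of both replicates overlapped 89.9% of sites with the core and 63.9% of those without. The core itself was overlapped by a footprint in 148 of 158 sites (93.7%) in replicate 1, in 129 (81.6%) in replicate 2 and in 127 (80.4%, 73.5% to 85.8%) in both. In the 4243 other distal sites with a core the shares were 93.9% in replicate 1, 71.7% in replicate 2 and 70.8% (69.4% to 72.1%) in both. The core lay a median of 11.2 bp from the centre of the site. It pointed along the transcript in 85 sites (53.8%, 46.0% to 61.4%) and against it in 73.

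Slc43a2, a transporter of large neutral amino acids, had heights of 7 in replicate 1 and 2.78 in replicate 2 at its core-bearing site in a 3′ UTR. Adgrb1, an adhesion receptor of synapses and of the uptake of dead cells, had 6.05 and 2.60 at its site 357 bp past the end. Elovl3, a fatty acid elongase, had 6.77 and 2.12. In the 6 core-bearing sites shown at the start, the log2 ratio of replicate 1 over replicate 2 lay between 0.96 and 1.67. The median was 1.11 over all 158 sites with a core and 0.67 over all 723 sites.

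Other motifs were shorter or rarer. The E-box CAGNTG matched 60% of sites at ends, against 59.8% of other distal sites and 48.9% of all shared peaks. The AP-1 motif TGANTCA matched 36 sites (4.98%, 3.62% to 6.82%), against 7.98% of other distal sites (7.66% to 8.31%) and 5.69% of all shared peaks. The RFX motif GTTGCCA matched 21 sites (2.90%, 1.91% to 4.40%), against 5.53% of other distal sites (5.26% to 5.81%) and 4.40% of all. Both were less frequent at ends than in other distal sites by more than counting error. Against other distal sites within 20000 bp of an end the interval of the AP-1 share overlapped, at 6.81% (6.32% to 7.34%), and that of the RFX motif did not, at 4.88% (4.46% to 5.33%). Against other distal sites that overlapped a protein-coding exon, the intervals of both motifs overlapped. The shares there were 5.34% (4.23% to 6.72%) for AP-1 and 4.54% (3.52% to 5.84%) for the RFX motif. The SP/KLF box GGGCGGGG, frequent at promoters at 21%, matched 3.32% of sites at ends and 2.34% of other distal sites, against 10.6% of all shared peaks. The paired NFI motif (TTGGC, any 5 bases, GCCAA) matched 0 of 723 sites, with a Wilson upper bound of 0.529%, and 0.078% of other distal sites. A match is a run of letters and not a bound factor, and the motifs were read on the reference allele.

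**Figure D3:**
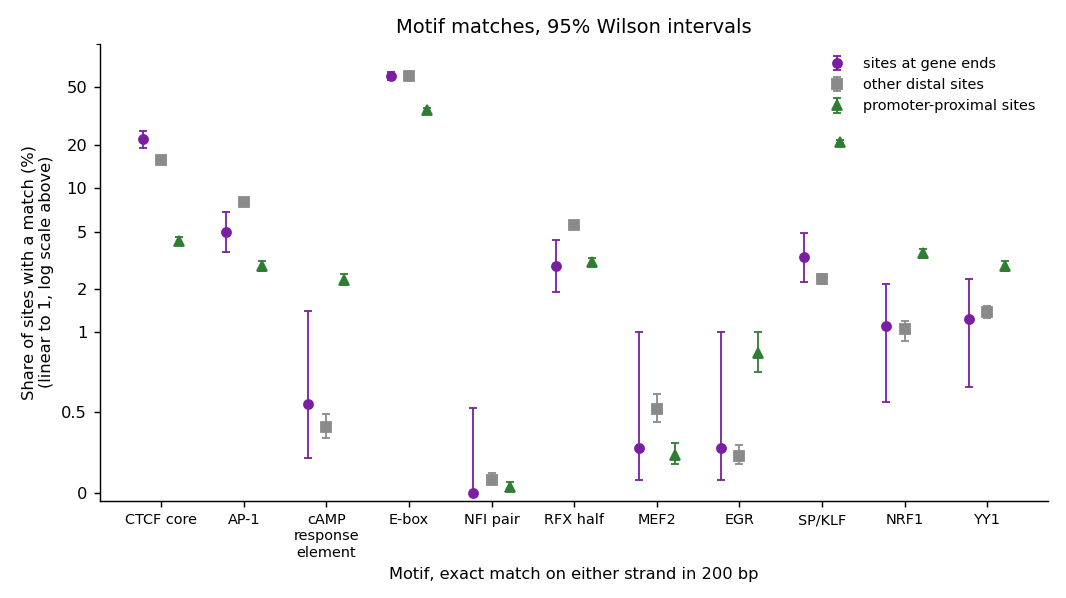
Share of sites in percent with an exact match on either strand in 200 bp, for sites at gene ends, other distal sites and promoter-proximal sites (points), with 95% Wilson intervals that cover counting error only; the axis is linear up to 1 and logarithmic above. Sites at gene ends lie above other distal sites for the CTCF core, level with them for the E-box and below them for AP-1 and the RFX motif.

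The most frequent poly(A) signals, AATAAA and ATTAAA, were looked for on the strand of the transcript. On that strand, at least 1 of them lay in the 200 bp window of 63 sites (8.71%). On the opposite strand, this held for 52 sites (7.19%). The window was centred on the site and not on the end. Only 42 centres lay in the last 100 bp before the end and 61 in the first 100 bp past it. Most windows thus did not reach the end, so shares in such windows cannot show whether the ends near the sites carry a signal. Counted on either strand, AATAAA lay in 9.96% of sites at gene ends, against 10.7% of other distal sites and 7.7% of all shared peaks, and ATTAAA in 5.12%, against 7.92% and 5.5%.

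Peaks were in fact thinnest at the end itself. Around the outermost protein-coding ends of 16341 genes, shared peak centres had a density of 8.59 per Mb within 100 bp of the end, against 22 per Mb within 500 bp, 22.2 per Mb between 500 and 5000 bp before the end and 24.7 per Mb between 500 and 5000 bp past it. Each replicate alone showed the trough: 42 against 76.4 per Mb in replicate 1 and 10.4 against 26 per Mb in replicate 2, within 100 bp and within 500 bp. In the last 200 bp before the end there were 12 shared centres per Mb, and in the 200 bp before those 31.9. Base composition moved with it: GC content was 39.8% in the last 200 bp before the end and 44.6% in the preceding bin. Its part in the trough was not tested. All distal autosomal sequence had 12.3 shared centres per Mb. Sequence between 500 and 5000 bp from an end was thus richer in shared peaks on both sides, whereas that within 100 bp was poorer. In single replicates, all distal sequence had 41.6 per Mb in replicate 1 and 14.9 in replicate 2, against 42 and 10.4 within 100 bp.

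**Figure D4:**
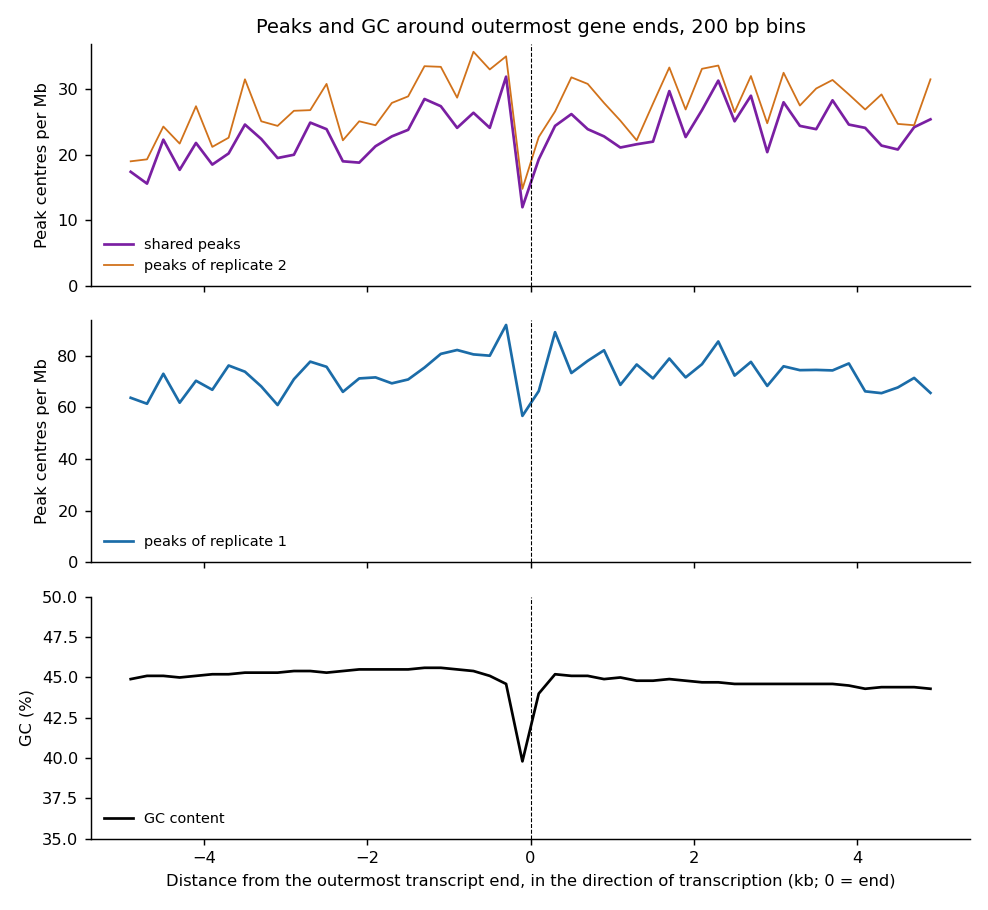
Density of peak centres per Mb of distal sequence in 200 bp bins around 16341 outermost gene ends for shared peaks and replicate 2 (top) and replicate 1 (middle), with GC content in percent below on an axis from 35 to 50. The horizontal axis is the distance in kb from the end along transcription; density and GC both dip in the bin just before the end.

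The 723 sites accordingly lay to either side of the end. The centre was past the end in 369 (51.0%) and before or on it in 354, and 67 sites held the end. By 100 bp classes, 42 centres lay in the last 100 bp before the end and 61 in the first 100 bp past it, against 76 at 200 to 300 bp before and 74 at 200 to 300 bp past. Heights were alike on both sides, with medians of 1.82 and 1.09 past the end and 1.63 and 1.09 before it in replicates 1 and 2.

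What the annotation held at the centre separated the sites more clearly than the side. The centre lay in a 3′ UTR in 256 sites, in a coding exon in 144, in an intron in 136, in a 5′ UTR in 2 and outside protein-coding transcripts in 185. The coding exon sites were the lowest, with medians of 1.09 in replicate 1 and 0.984 in replicate 2, against 2.17 and 1.11 for sites outside protein-coding transcripts. They also had the fewest CTCF core matches, 10 of 144 (6.94%, 3.82% to 12.3%), against 26.5% outside protein-coding transcripts and 23.4% in 3′ UTRs. CpG-rich sequence, here an observed over expected CpG ratio above 0.6 with over 50% GC, was found in 83 of them (57.6%, 49.5% to 65.4%). Low height and few CTCF cores were shared by the 476 other distal coding exon sites within 20000 bp of an end. Those had medians of 1.14 in replicate 1 and 0.936 in replicate 2, and a CTCF share of 9.24% (6.96% to 12.2%).

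**Figure D5:**
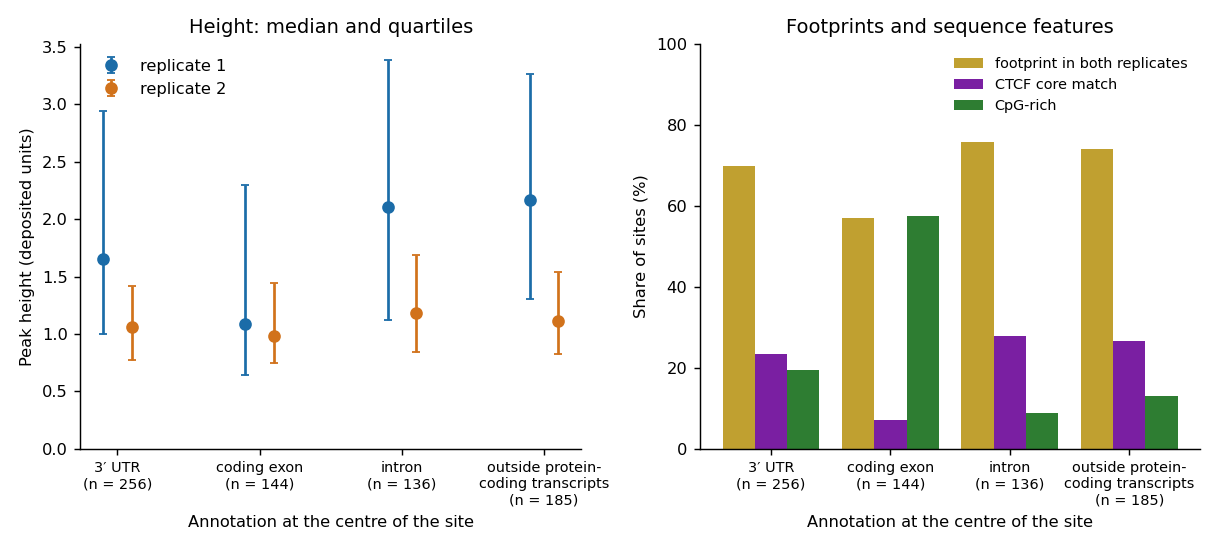
Sites at gene ends by the annotation at their centre: left, median peak height in deposited units (points) with quartiles (bars) in each replicate, and right, the share of sites in percent with a footprint in both replicates, a CTCF core match or CpG-rich sequence. Sites in coding exons were the lowest in height, had the lowest CTCF share at 6.94% and the highest CpG-rich share at 57.6%.

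Sequence composition differed from that of neighbouring distal sites. Their median GC content was 56.5%, against 53.9% in other distal sites within 20000 bp of an end and 52.8% in all other distal sites. CpG-rich sites made up 169 of 723 (23.4%, 20.4% to 26.6%), against 12.6% (12% to 13.3%) of other distal sites within 20000 bp. The 1255 other distal sites that overlapped a protein-coding exon had a median GC content of 56.1%, and 23.1% of them were CpG-rich. Such an exon was overlapped by 62.9% of the sites at ends. Of the 169 CpG-rich sites at ends, 83 were centred in a coding exon. Coding exon sites elsewhere within 20000 bp of an end were CpG-rich in 35.9% of 476, below the 57.6% at ends, and with coding exon sites set aside the shares were 14.9% (12.2% to 18%) of 579 and 11.4% (10.7% to 12%) of 8893. Repeats were rare: 11 of 723 sites (1.52%) were over 50% repeat-masked in the reference, against 2.17% of other distal sites.

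Not every annotated end is the end of a gene. At the outermost end of a gene lay 411 sites, with median heights of 2.05 in replicate 1 and 1.11 in replicate 2, a CTCF share of 26% (22% to 30.5%) and a footprint of both replicates in 73.5%. Near an internal end only lay 312 sites, with medians of 1.43 and 1.03, a CTCF share of 16.3% (12.7% to 20.9%) and footprints in 64.4%. Of these 723 sites, 128 were near ends of incomplete transcript models only, whose true end was not found by the annotators. A start of a transcript that is not itself protein-coding lay within 500 bp of 73 sites (10.1%), against 6.80% of other distal sites and 26.7% of all shared peaks, and of 44 of the internal ones (14.1%) against 29 of the outermost ones (7.06%).

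Where genes on opposite strands end face to face, 1 site can lie within 500 bp of both ends. There were 23 such sites, with medians of 1.95 in replicate 1 and 1.15 in replicate 2 and CTCF cores in 9 (39.1%, 22.2% to 59.2%), against 21.3% (18.4% to 24.5%) of the other 700. These intervals overlapped, and so did that of all sites at outermost ends, at 26% (22% to 30.5%). The highest by the mean of both replicates lay where Shank1, the postsynaptic scaffold gene, ends against 1700008O03Rik, and had heights of 7.12 in replicate 1 and 3.70 in replicate 2. The site between Lrrc24 and Lrrc14 had 7.56 and 2.88. The site between Elovl3 and Pitx3, a homeodomain factor of midbrain dopamine neurons, was the one with the core printed above. Trp53i13 and Git1, a synaptic GTPase-activating protein, shared a site of 4.33 and 1.91.

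Small RNA genes were few among the sites. A tRNA gene of RefSeq was overlapped by 3 sites (0.415%), against 0.52% of other distal sites, and a miRNA primary transcript by 1. The tRNA sites were those past Ctc1, a telomere maintenance gene, with heights of 5.72 in replicate 1 and 3.23 in replicate 2, past Per1 with 3.10 and 1.58, and past Mrpl58 with 2.48 and 1.97. All 3 were on chromosome 11.

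Most genes had 1 site. Of the 655 genes that gave a site its name, 596 had 1, 51 had 2, 7 had 3 and Gas8 had 4. The 25 sites of the 8 genes with 3 or more were low, with medians of 0.396 in replicate 1 and 0.463 in replicate 2, against 1.82 and 1.10 for the 698 sites of genes with 1 or 2. Of these 25 sites 12 were under 0.5 in both replicates, against 11 of the 698 (1.58%). Gas8, which encodes a subunit of the ciliary dynein regulatory complex, had 4 sites between 0.182 and 0.305 in replicate 1 and between 0.172 and 0.344 in replicate 2, ranked 719, 720, 722 and 723 of 723. Ctc1 had the tRNA site, another of 4.45 and 1.41 in a coding exon and another of 0.492 and 0.624 in its 3′ UTR. Crygn, a crystallin gene, had 1 higher site of 4.31 and 1.82 just past its end and 2 lower ones. The sites of Capn11, a calpain, reached 1.76 and 1.08. The 3 sites of Alox5ap, the activator of leukotriene synthesis, lay between 0.396 and 0.668 in replicate 1 and all had 1.09 in replicate 2, where 1 peak spanned all 3.

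The balance between replicates differed among sites. The largest log2 ratios of replicate 1 over replicate 2 were 2.50 at Pcgf5, a Polycomb subunit gene, with heights of 2.50 and 0.441, 2.13 at Fto, an RNA demethylase gene, with 3.11 and 0.71, and 2.11 at Tes, a focal adhesion gene, with 2.22 and 0.516. The smallest were -2.25 at 9030025P20Rik, with 0.15 and 0.71, -1.62 at Nynrin, with 0.578 and 1.77, and -1.48 at Enpp6, a choline phosphodiesterase of young oligodendrocytes, with 0.262 and 0.732. The first 3 were not in the shorter list of replicate 2, and the last 3 were not in that of replicate 1.

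Counted by gene, 662 of 16998 eligible genes (3.89%, 3.61% to 4.2%) had a site at an end, an eligible gene being an autosomal protein-coding gene with an end over 2500 bp from every start. The share depended on how many ends the annotation gives: 2.38% of genes with 1 end and 7.04% of genes with 5 or more. It was 3.04% in genes under 10 kb and 5.35% in genes of 100 kb or more. Genes with a site had an open promoter in 69.8% of cases (66.2% to 73.2%), against 62.7% (62% to 63.4%) of those without and 63% of all eligible genes. Among outermost ends, 2.66% of those facing another gene's end and 2.10% of those followed by a gene on the same strand had a site.

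Genes of neurons and of other hippocampal cells were looked up in lists written with earlier results of these data known. Of the 22 eligible glutamate receptor and scaffold genes, 6 (27.3%) had a site, against 3.89% of all eligible genes. The housekeeping list came close, at 3 of 12 (25%). Among the glutamate genes with a site were Grik4, Grik5, Grm2, Grm5 and Shank1. Grm2, a presynaptic metabotropic receptor, had the highest of the receptor sites, with 3.86 in replicate 1 and 1.61 in replicate 2 in its 3′ UTR, with a CTCF core. Grik5, a kainate receptor subunit, had 2 sites, of 1.82 and 1.87 past its end and of 1.29 and 1.59 in its 3′ UTR. Grik4, another kainate subunit, had 0.995 and 1.25, and Grm5, a metabotropic receptor, had 0.642 and 1.13, both near internal ends. Another Shank1 site, in a coding exon, had 0.84 and 1.23. In replicate 1 these values lay near or below the median of all 723 sites except at Grm2 and the shared Shank1 site, whereas in replicate 2 each was above its median of 1.09.

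Of 21 voltage-gated channel genes, 3 had a site (14.3%), against 3.89% of all eligible genes. All 3 were for calcium channel pores: Cacna1a as above, Cacna1h with 3.41 and 1.76 in an intron with a CTCF core, and Cacna1b with 0.674 and 1.04. Of 19 immediate-early and activity-regulated genes, 2 (10.5%) had one, Per1 and Egr3. Egr3, a zinc-finger factor induced by activity, had 1.38 and 0.904. Egr4, whose own ends lie within 2500 bp of a start and which was not among the eligible genes, had a site of 3.14 and 1.11 past its end. Of 18 excitatory neuron genes, 2 (11.1%) had one. Nrgn, which encodes a calmodulin-binding postsynaptic protein, had 2.17 and 1.10, and Tbr1, a cortical transcription factor, had 0.529 and 0.839. None of 19 pan-neuronal, 12 microglial, 9 CTCF and cohesin or 17 neuronal splicing genes had one. With a share of 3.89% over all eligible genes, lists this short cannot show an absence. As they were written with earlier results known, their shares do not measure an excess either.

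Sites near genes of the remaining lists were as follows, to be read beside the share of 3.89% over all eligible genes. Gad1, which makes GABA, had 1.88 and 1.00 near an end of an incomplete model. Acsbg1 of astrocytes had 1.93 and 0.667, Bcas1 of oligodendrocytes had 2.19 and 0.893, and Slc2a1, the glucose transporter of brain vessels, had 1.55 and 0.775. Nfib, the only 1 of 4 nuclear factor I genes (25%) with a site, had 2. They had 0.984 and 1.00 and 0.636 and 1.37, both at incomplete ends. Of 12 housekeeping genes, 3 (25%) had a site. Gapdh had 2.54 and 0.99 at a site near the facing end of Iffo1, Gusb had 1.00 and 0.602, and Tubb5 had 0.652 and 0.839. Of 18 liver and muscle genes, whose promoters had no shared peak, 2 (11.1%) had a site. Acta1 had 2.85 and 1.99 and Ckm 2.51 and 1.60, each in replicates 1 and 2. The Acta1 site lay 2571 bp from a start, and the Ckm site held a start of another annotated transcript.

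At the limits of the rule, values did not change abruptly. Just inside 500 bp of an end lay the Trim14 site, at 494 bp, and the 1810043G02Rik site, at 493 bp with 3.27 and 1.05. Just outside lay a site near Lag3 with 4.82 and 2.75 and a site near Adamtsl5 with 4.09 and 2.12. Just inside the limit of 2500 bp from starts lay Sectm1b, at 2543 bp with 3.36 and 1.05. Just outside it lay Atp6v1fnb, at 2484 bp with 1.42 and 1.01, and Lor, at 2482 bp with 0.562 and 0.807.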

How the data were processed

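DNase-seq peaks, footprints and false discovery rate intervals of 2 hippocampus samples were used as the authors deposited them, called per sample and not pooled, on mm10, per the labels and the deposited description files. For the aligner and the callers, no name is given in the sources used here. The deposited peak signal (height) has no stated scale. The deposited p-value files hold a false discovery rate per interval, from which no value is printed, and footprints with a constant value, used by position only. Of each sample's peak lists, that with more rows was used; a shared peak was the merged intersection, by at least 1 bp, of both replicates' peaks. Distances came from GENCODE M21 and sequence from RefSeq GRCm38.p6; motifs were exact matches in 200 bp. A site's height is that of the highest peak over it. A group of sites was compared by counts and medians; Wilson intervals have a confidence level of 95% and cover counting error only.

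Members and gene lists were chosen with earlier results of these data known. Named sites were the 12 highest by geometric mean, the 5 with most footprints, the 3 with the highest and the 3 with the lowest replicate ratio, up to 5 genes with 3 or more sites, the 2 highest per gene list, the 5 highest at facing ends, the 5 highest past the end outside exons, the 5 highest in final exons, the 6 highest with a CTCF core and the 2 on each side of each threshold. Further listed genes, and the sites over small RNA genes, were named after their values were seen. A few sites that the rule names, and some of their sequences, are not reported here. Alternatives covered the peak list, overlap, replicates, height, distances, which ends counted and other starts. Python 3.11.15, NumPy 2.4.6 and bedtools 2.31.1 were used; functions were tested on simulated data.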

Additional observations from a re-analysis of the deposited data

How the results depend on the processing

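Of 124 values that 9 results took under other settings, 74 stayed within the spread of the reported one (1.5 times for the count, the Wilson interval for shares, 1 SD for the height ratio and GC). The SD for GC, 1.7, was taken between the 2 single-replicate sets, which are themselves among the alternatives. The cause of a shift was not tested where the alternative itself does not set it. The number of sites, reported as 723, was 320 with the shorter lists, 440 with peaks above the median height, 350 within 200 bp and 1213 within 1000 bp of an end, 411 at outermost ends only and 1144 with ends of all transcripts of protein-coding genes. The share of shared peaks, reported as 1.46%, was 1.17% with the shorter lists, 1.60% with 50% overlap, 0.707% within 200 bp, 2.45% within 1000 bp, 1.80% with starts over 1000 bp and 1.14% with starts over 5000 bp away, 1.20% without incomplete ends, 0.831% at outermost ends, 2.31% with all transcripts and 1.31% without sites near other starts. The height ratio, reported as 1.31, was 1.08 with peaks above the median, 1.44 at outermost ends and 1.06 against distal sites within 20000 bp of an end, the last added after the data had been seen. The share with footprints, reported as 69.6%, was 80.6% with the shorter lists, 83.7% with 50% overlap, 86.6% above the median and 73.5% at outermost ends. The share in the shorter lists, reported as 45.8%, was 54.6% with 50% overlap, 65.0% above the median and, by construction, 100% within those lists. The CTCF share, reported as 21.9%, was 27.5% with the shorter lists, 27.7% with 50% overlap, 28.4% above the median and 26.0% at outermost ends. Whole peaks lay past the end in 45.1%, against 51.0% by centre. The share of eligible genes, reported as 3.89%, was 1.72% with the shorter lists, 2.85% with 50% overlap, 2.47% above the median, 1.94% within 200 bp, 6.34% within 1000 bp, 3.30% without incomplete ends, 2.37% at outermost ends, 5.79% with all transcripts and 3.58% without sites near other starts. With the peaks of 1 replicate alone, values ranged from 910 to 2437 sites, 1.56% to 1.89% of peaks, a height ratio of 1.19 to 1.28, footprints in 72.3% to 79.0%, shorter lists in 43.2% to 60.9%, CTCF in 13.9% to 17.6%, 49.0% to 50.1% past the end, 4.64% to 11.6% of genes and 53.5% to 55.9% GC. The number of sites was 910 without replicate 1 and 2437 without replicate 2. No paired analysis was possible because the design has a single group. Depth is unknown, so an absent site may be one below detection, and the reference holds 1 of 2 alleles, so motifs of the CAST/EiJ allele were not read.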
